A study of Zea mays with 18 samples.

Results

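The comparison described here set the 3rd leaf below the ear against the ear leaf of maize grown at high plant density. Its members were the 3 libraries titled HB (lower leaf, high density) and the 3 titled HE (ear leaf, high density), which are 6 of the 18 RNA-seq libraries of the series. The other groups were HA (3rd leaf above the ear, high density), LB (lower leaf, low density), LE (ear leaf, low density) and LA (upper leaf, titled as low density), with 3 libraries each. All plants were the field hybrid Xianyu 335, sampled in the grain-filling stage, when the ear draws sugars and amino acids from the leaves. The number of plants per area is not given in the sources used here. Nothing in the labels tells if replicate libraries were made from different plants. The p-values therefore set a difference against the spread between libraries within groups, pooled over all 18. That spread may be partly technical.

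In maize, mesophyll cells first fix carbon with phosphoenolpyruvate carboxylase and pass the resulting acids to bundle sheath cells, where Rubisco and the Calvin cycle work. An ageing leaf takes its chloroplasts apart: chlorophyll is broken down, proteins are cleaved or carried to the vacuole by autophagy, and membrane lipids can be turned into sugar through the glyoxylate cycle, whose particular enzymes are isocitrate lyase and malate synthase. Lower leaves of a dense stand are shaded by the leaves above and usually age first.

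Expression was deposited as RPKM, a read count scaled by the length of the gene model and the size of the library. A gene was tested if it reached 1 RPKM in at least 3 of the 18 libraries, and 21184 of 31855 gene models did. Values were compared as log2(RPKM + 0.5), a scale that understates the change of low genes, with limma over all 18 libraries. A gene was called at a Benjamini-Hochberg adjusted p under 0.05. Fold changes are HB over HE unless stated, with their standard error (SE). HB and HE differed in 5904 genes (27.9% of those tested), of which 3647 (17.2%) were higher in HB and 2257 (10.7%) lower. With a change of 1 or more on the log2 scale there were 1692 calls (7.99%), 925 (4.37%) higher and 767 (3.62%) lower. The 3 HB and 3 HE values did not overlap in 49.0% of genes tested, with HB higher in 32.3% and lower in 16.7%. The median of all genes tested was 0.11 on the log2 scale. After rescaling each library by the median of its gene ratios that median was -0.003, with 2554 genes higher and 2832 lower. Quantile normalization gave 2933 higher and 2990 lower. Which side held more calls therefore depended on the scaling.

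The libraries of a group resembled each other more than those of the other group. Correlations of log2 values across genes were 0.97 to 0.976 among HB libraries and 0.974 to 0.985 among HE libraries, against 0.92 to 0.944 between the groups. Read depth relative to the mean of all libraries, recovered from the steps between low values, was 0.886, 1.04 and 1.06 in HB and 1.05, 1.04 and 1.01 in HE. Within HB, the libraries did not move by the same amount. HB_2 had the lowest level of the 3 in 1208 of the 2257 genes called lower, and HB_1 the lowest in 546 of the 925 genes called higher by at least 1 log2. Marker genes of kernels (4 matched) reached at most 0.0538 RPKM in HB and 0.161 in HE, and 2 of them were at 0 in all 6 libraries. Of 4 meristem markers, 3 were at 0, and the highest value was 0.914 RPKM in HB and 1.07 in HE.

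The enzymes that start the C4 cycle were much lower in the lower leaf. Phosphoenolpyruvate carboxylase, pep1 (GRMZM2G083841), had 618, 461 and 374 RPKM in HB and 4300, 3780 and 3820 RPKM in HE. No HB library came near the HE range, and pep1 fell by 3.06 on the log2 scale (SE 0.32, adjusted p = 1.26e-05, limma). Pyruvate phosphate dikinase, pdk1, which regenerates the substrate of that enzyme, had 2230, 1450 and 1870 RPKM in HB, against 5900, 4610 and 4920 RPKM in HE, and fell by 1.49. The chloroplast malate dehydrogenase mdh6 had 329, 298 and 366 RPKM in HB and 955, 708 and 774 RPKM in HE, a fall of 1.29. In a wider list of C4 enzymes, their kinases and transporters, 7 of 18 genes tested fell and 1 rose. The list's median was -0.51, and among all genes 10.7% were lower and 17.2% higher. Among the carriers, pDCT2, a plastid dicarboxylate transporter by name, fell by 1.70 and pDCT1 by 1.01. The gene that rose was me2, another malic enzyme, at 98.9, 127 and 101 RPKM in HB and 58.1, 59.5 and 61.9 RPKM in HE. The bundle sheath malic enzyme me3 had 804, 456 and 463 RPKM in HB and 867, 822 and 964 RPKM in HE. Its fall of 0.67 just passed the test (adjusted p = 0.0481, limma), and the call was lost without HE_1, HE_2, HE_3, HB_2 or HB_3, with an adjusted p of up to 0.174.

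**Figure D1:**
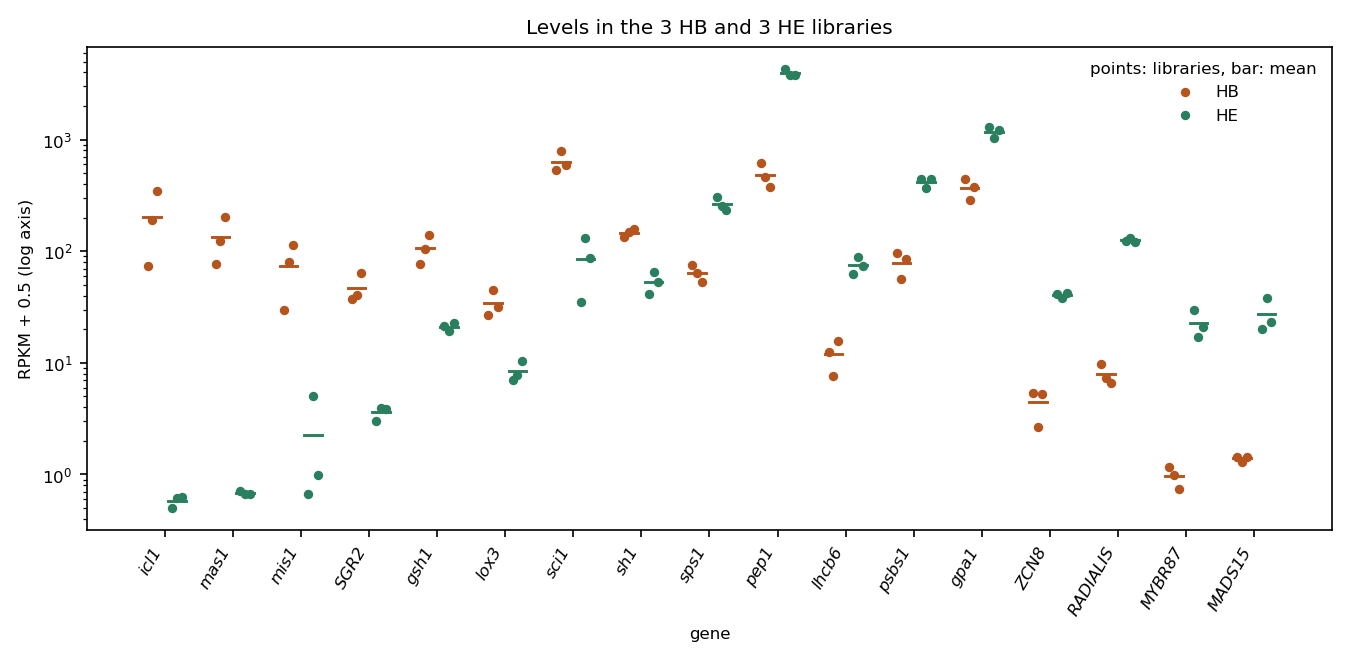
RPKM plus 0.5 on a log axis in the 3 HB libraries (left of each pair) and the 3 HE libraries (right) for 17 named genes; points are libraries and bars are group means. The glyoxylate cycle genes icl1 and mas1 lie at the floor in HE, while pep1, lhcb6 and the genes at the right end are lower in each HB library than in any HE library.

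Light harvesting and electron transport followed the same direction. In the wider antenna list, 6 of 7 genes tested fell and none rose, with a median of -1.47. The falls numbered 5 without HE_2, HE_3 or HB_2. Among all genes 10.7% were lower and 17.2% higher. The minor antenna gene lhcb6 (CP24) had 12, 7.05 and 15.3 RPKM in HB and 61.8, 87.7 and 73.5 RPKM in HE, a fall of 2.70 (SE 0.45, adjusted p = 0.000434, limma). The antenna gene lhcb3 had 31.7, 11.6 and 31.8 RPKM in HB and 116, 167 and 143 RPKM in HE. The gene listed as cp29 had 249, 144 and 305 RPKM in HB and 913, 975 and 1090 RPKM in HE. HB_2 was the lowest library for each of these 3 genes, and the groups did not overlap. The exception in the list was cab-m1, named here after its value was seen, with a log2 fold change of 0.34 that was not called. The summed level of the list was 2730 to 3340 RPKM in HB and 3990 to 4460 RPKM in HE. Most of that sum lay in genes other than lhcb6, lhcb3 and cp29. In the list of photosystem subunits, electron carriers and assembly factors, 22 of 25 genes fell and 2 rose, with a median of -0.95. Here the falls numbered 16 without HB_2, 18 without HE_3 and 19 to 21 without any 1 of the others. The photoprotective photosystem II subunit psbs1 had 95.8, 55.9 and 84.4 RPKM in HB, against 445, 365 and 440 RPKM in HE. The 2 gene models listed as PGR5, named for a protein of cyclic electron flow, fell by 0.98 and 1.79; such close copies may share reads. The 2 that rose were the ferredoxin gene fdx3 (81.7, 90.9 and 121 RPKM in HB, 57.9, 65.2 and 68 RPKM in HE) and fnr1, a ferredoxin-NADP reductase (18.3, 21.4 and 23.1 RPKM in HB, 12.7, 12.2 and 14.5 RPKM in HE).

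The Calvin cycle had 6 of 12 genes tested lower in HB and none higher, against 10.7% and 17.2% of all genes. The falls numbered 4 without HE_1, HE_3 or HB_2 and 5 without HE_2 or HB_3. The chloroplast glyceraldehyde-3-phosphate dehydrogenase genes showed the largest falls of the list. For gpb1 the levels were 193, 111 and 162 RPKM in HB and 812, 546 and 756 RPKM in HE, and for its partner gpa1 they were 448, 289 and 378 RPKM in HB and 1290, 1040 and 1210 RPKM in HE. The Rubisco small subunit gene rbcS (GRMZM2G113033) had 347, 207 and 239 RPKM in HB and 660, 530 and 664 RPKM in HE, and fell by 1.25. Its close copy rbcs1 (GRMZM2G098520) had 151, 87.8 and 126 RPKM in HB and 211, 177 and 225 RPKM in HE, and its difference of -0.78 was not called (adjusted p = 0.0532, limma). Reads may be divided between these copies. Rubisco activase, rca1, had 388, 229 and 242 RPKM in HB and 535, 508 and 542 RPKM in HE, a fall of 0.92.

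Put together, the 4 photosynthesis lists held 62 genes tested, of which 41 fell and 3 rose, with a median of -0.82, against 10.7% lower and 17.2% higher among all genes. Their share of all RPKM was 2.22%, 1.72% and 1.98% in HB and 4.62%, 4.12% and 4.3% in HE, or 1.97 ± 0.25 and 4.35 ± 0.253 (SD, n = 3 each). In 33 of the 41 genes HB_2 was the lowest library. Without HB_2 the count of falls was 31, and without any other HB or HE library it lay between 33 and 40. In such whole-leaf RNA, fewer cells of a type and less RNA per cell cannot be told apart. Mesophyll markers fell in 5 of 5 genes, with a summed level of 2210 to 3190 RPKM in HB and 9190 to 11200 RPKM in HE. Bundle sheath markers fell in 3 of 4 genes, me3 among them, with sums of 979 to 1690 RPKM in HB and 2040 to 2390 RPKM in HE. Most of these markers, such as pep1, pdk1, mdh6, lhcb6, me3, rbcS and rca1, are photosynthesis genes described above. They therefore restate those falls and give no separate measure of cell types. Guard cell and epidermis markers fell in 2 of 4 genes, and xylem and sclerenchyma markers in 1 of 2. With 1 library left out these counts went down to 1 and 0. Neither of 2 phloem markers was called. The part of cell composition in these results was not tested.

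Genes that make and run the chloroplast's own expression machinery were also lower. In a list of plastid transcription, splicing, translation and import factors, 25 of 30 genes tested fell and none rose, with a median of -0.74. RH3A, an RNA helicase of the plastid by name, had 93.3, 90.6 and 79.5 RPKM in HB and 163, 157 and 154 RPKM in HE, a fall of 0.85 (SE 0.10, adjusted p = 3.42e-05, limma). The plastid mRNA processing factor crp1 had 17.8, 18.3 and 16.8 RPKM in HB, against 34.3, 33.8 and 30 RPKM in HE. WHY1, a DNA- and RNA-binding protein of chloroplasts, had 27.5, 24 and 28.4 RPKM in HB and 58.5, 49.3 and 52.8 RPKM in HE. These falls were smaller than those of the antenna genes but the libraries within a group lay closer together. Among regulators, glk1, which drives chloroplast development, fell by 1.03. It was the 1 gene called lower of 11 GLK and GATA factors tested, while 3 were higher (1 after median-ratio rescaling). Among all genes 10.7% were lower and 17.2% higher.

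Pigment genes moved in both directions. For chlorophyll synthesis, oy1, a subunit of magnesium chelatase, had 64.3, 49 and 51 RPKM in HB and 134, 141 and 137 RPKM in HE, a fall of 1.33. DVR, divinyl chlorophyllide reductase, fell by 1.67, to 6.34, 5.8 and 6.56 RPKM in HB, against 21.6, 20.8 and 20.3 RPKM in HE. Genes for chlorophyll breakdown were higher. SGR2, a stay-green protein that acts on chlorophyll a at the first step, had 36.7, 39.7 and 62.7 RPKM in HB, against 2.51, 3.45 and 3.37 RPKM in HE. It rose by 3.67 (SE 0.28, adjusted p = 6.55e-07, limma). The pheophorbide oxygenase gene lls1, which opens the chlorophyll ring, had 75, 82.8 and 121 RPKM in HB and 37.5, 45.2 and 46.2 RPKM in HE, a rise of 1.08. HB_3 was the highest library for both. Carotenoid genes fell in 11 of 25 and rose in 3 of 25 (7 fell without HE_1), against 10.7% lower and 17.2% higher among all genes. Phytoene synthase, listed as pb1 with the alias PSY1, had 108, 78.8 and 91.7 RPKM in HB and 185, 164 and 175 RPKM in HE. Lycopene epsilon cyclase, lyce1, fell by 0.97. On the other side, VTE2-1, a homogentisate transferase of tocopherol synthesis, had 170, 172 and 181 RPKM in HB and 81.2, 89.2 and 97.5 RPKM in HE.

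**Figure D2:**
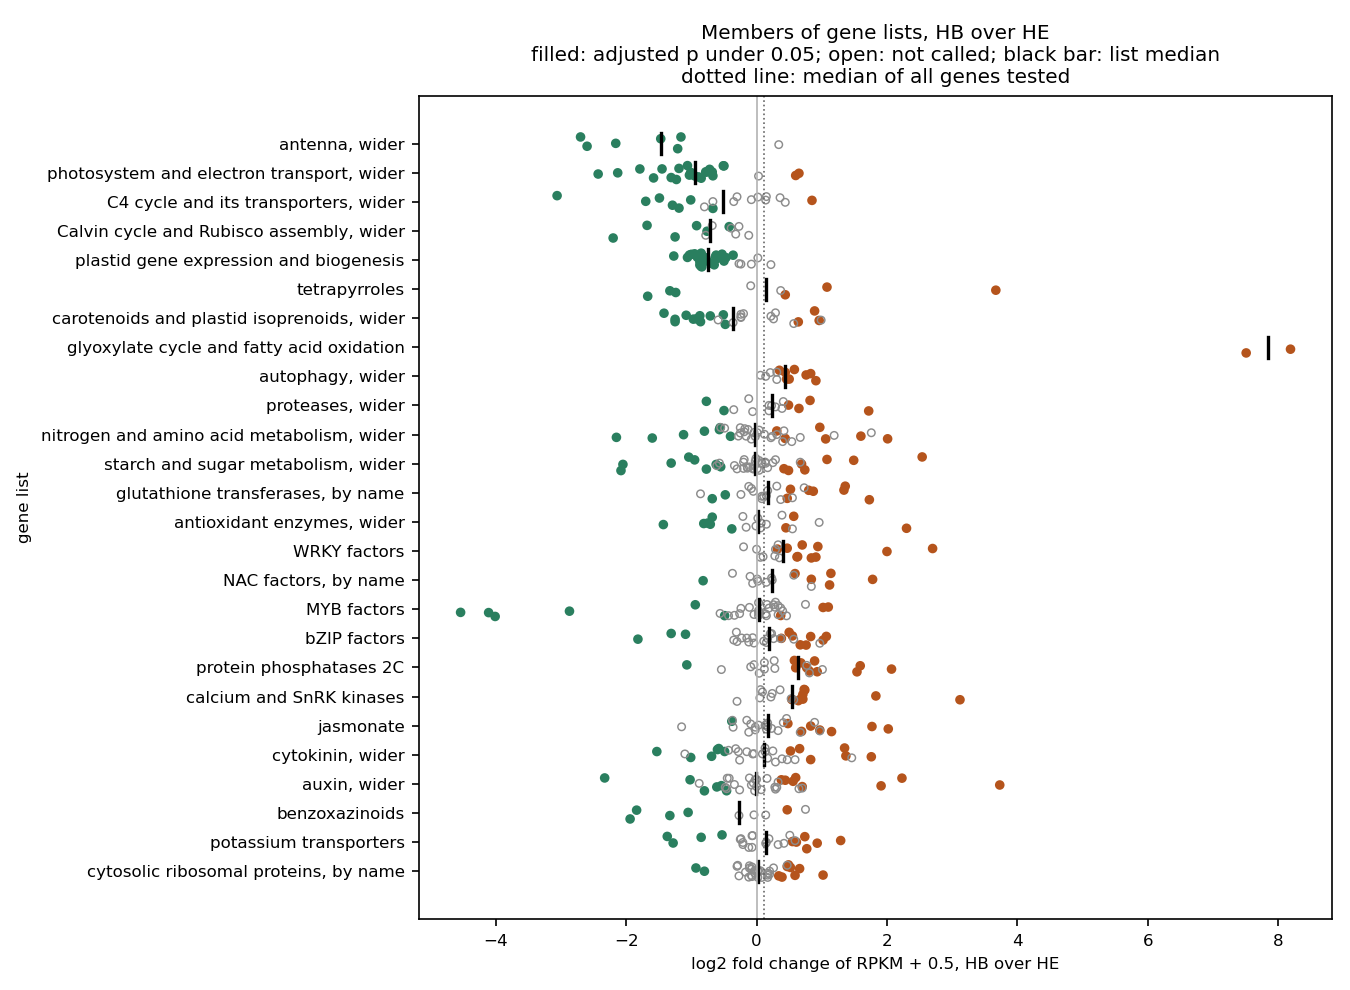
Log2 fold change of HB over HE (x axis) for the tested members of 26 gene lists (y axis); filled points were called, open points were not, and the black bar is the list's median. Photosynthesis and plastid lists sit left of the dotted line at 0.11, the median of all genes tested, and the 2 glyoxylate cycle genes lie far to the right.

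The largest rises were in the glyoxylate cycle. Isocitrate lyase, icl1 (GRMZM2G056369), had 73.1, 190 and 344 RPKM in HB and 0, 0.121 and 0.124 RPKM in HE. Malate synthase, mas1 (GRMZM2G102183), had 76.1, 124 and 201 RPKM in HB and 0.213, 0.167 and 0.171 RPKM in HE. Both were near absent from the ear leaf, and in HB their order over the libraries was the same, with HB_1 lowest and HB_3 highest. The log2 fold change of icl1 was 8.19 (SE 0.38, adjusted p = 1.89e-09, limma) and that of mas1 7.51 (SE 0.28, adjusted p = 1.04e-10, limma). With HE at the floor, these sizes depend on the pseudocount, and were 9.95 and 8.78 with 0.1 in place of 0.5, and 7.30 and 6.72 with 1. In all, 13 genes averaged at least 10 RPKM in HB with each HE library under 1 RPKM, and icl1 and mas1 were those with a name. The gene listed as mis1 with the alias ALDH12, the name of a proline-breakdown dehydrogenase family, had the next largest rise among named genes, at 29.5, 78.8 and 113 RPKM in HB and 0.173, 4.55 and 0.479 RPKM in HE. It rose by 5.44 (SE 0.65, adjusted p = 3.46e-05, limma).

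Autophagy genes were modestly higher. Of 13 tested, 8 rose and none fell, with a median of 0.44, and 6 rose after median-ratio rescaling. ATG3, which joins the ATG8 tag to membrane lipid, had 39.8, 40.5 and 39.2 RPKM in HB and 23.4, 20.2 and 22.9 RPKM in HE, a rise of 0.83 (SE 0.13, adjusted p = 0.000315, limma). Its partner Atg7 had 16.8, 21.8 and 23.2 RPKM in HB, against 11.1, 11.2 and 9.73 RPKM in HE. The ATG8-cleaving protease Atg4b had 20.4, 23.4 and 25.7 RPKM in HB and 13.9, 12.8 and 13.5 RPKM in HE. None of these 3 had an HB library within the HE range. Of 15 proteases 4 were higher and 2 lower, against 17.2% and 10.7% of all genes, the lower count being 1 without any 1 of HE_1, HE_2, HE_3, HB_2 and HB_3. The vacuolar processing enzyme vpe1 had 5.43, 6.83 and 8.09 RPKM in HB and 1.58, 1.66 and 1.81 RPKM in HE, a rise of 1.72. The cysteine protease mir3 had 867, 731 and 1120 RPKM in HB and 534, 472 and 511 RPKM in HE. A senescence-enhanced legumain, see2b, was among the 5 most abundant genes of HB. It had 3350, 2010 and 3640 RPKM in HB and 2930, 1780 and 2090 RPKM in HE, ranges that overlap, and was not called (adjusted p = 0.308, limma). The chloroplast protease gene FtsH2B fell by 0.77.

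The maize proteinase inhibitor sci1 had 530, 790 and 589 RPKM in HB and 34.8, 132 and 86.5 RPKM in HE, a rise of 3.08 (SE 0.67, adjusted p = 0.0028, limma). The wound-induced inhibitor wip1 had 10.5, 23.6 and 33.6 RPKM in HB and 0.343, 4.32 and 1.95 RPKM in HE. In the list of cystatins and other inhibitors, 4 of 10 rose, and 2 did after median-ratio rescaling, under quantile normalization, or without HE_1, HE_2 or HB_2. Among all genes 17.2% were higher.

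In sugar and starch metabolism 7 of 41 genes were higher (4 after median-ratio rescaling) and 8 lower, against 17.2% higher and 10.7% lower among all genes, so the rises were at the share of all genes. Sucrose phosphate synthase, sps1, which makes sucrose for export, had 74.4, 63.5 and 52.9 RPKM in HB and 307, 256 and 232 RPKM in HE. It fell by 2.05 (SE 0.15, adjusted p = 4.83e-07, limma). The sucrose synthase sh1, which cleaves sucrose, was higher, at 134, 148 and 158 RPKM in HB and 40.6, 65 and 52 RPKM in HE. Genes named for subunits of ADP-glucose pyrophosphorylase, the entry to starch, went opposite ways. GLG1 had 49.2, 35.1 and 38.8 RPKM in HB and 89.8, 72.5 and 90.4 RPKM in HE, while Agp2 had 18.9, 21 and 28 RPKM in HB and 3.48, 3.63 and 3.16 RPKM in HE. Starch synthase ss1 fell by 1.31. The genes AGA3a and AGA3b, whose name stands for alkaline galactosidase, rose by 2.50 and 2.95. In glycolysis, the enolase eno1 had 143, 118 and 118 RPKM in HB and 378, 363 and 327 RPKM in HE.

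In nitrogen and amino acid metabolism, 6 of 37 genes rose and 7 fell, against 17.2% and 10.7% of all genes, so the rises here too were near the share of all genes. The 2 reductases that bring nitrate into metabolism were lower. Nitrate reductase NNR1 had 6.19, 9.09 and 7.53 RPKM in HB and 23.1, 23.6 and 24.5 RPKM in HE, a fall of 1.6 (SE 0.16, adjusted p = 7.51e-06, limma). Nitrite reductase NIR had 3.88, 5.67 and 6.62 RPKM in HB and 31.4, 21.9 and 22.9 RPKM in HE, a fall of 2.15. A lysine-degrading enzyme, lkrsdh1, had 83.9, 122 and 92.6 RPKM in HB, against 23.2, 25.3 and 23.7 RPKM in HE. Cytosolic glutamine synthetase gln5, which packs nitrogen for transport in the phloem, had 306, 304 and 353 RPKM in HB and 239, 225 and 243 RPKM in HE. Its rise of 0.44 was no longer called after median-ratio rescaling. The phosphatase gene PAPhy had 15.6, 36.6 and 32.7 RPKM in HB and 1.15, 2.41 and 3.06 RPKM in HE.

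Of 19 antioxidant genes 3 were higher and 6 lower, against 17.2% higher and 10.7% lower among all genes. Glutamate-cysteine ligase, gsh1, the first enzyme of glutathione synthesis, had 76.8, 104 and 138 RPKM in HB and 20.9, 18.8 and 22.3 RPKM in HE. It rose by 2.30 (SE 0.21, adjusted p = 4.57e-06, limma). Glutathione reductase gor1 was lower, at 38.3, 38.2 and 37.9 RPKM in HB and 68.7, 68.6 and 65.1 RPKM in HE. Catalase genes went apart: cat2 had 91, 69.9 and 80.9 RPKM in HB and 224, 225 and 202 RPKM in HE, and cat1 had 159, 169 and 168 RPKM in HB and 109, 109 and 116 RPKM in HE.

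Several transcription factors had steep falls. The MYB-related gene MYBR87 had 0.666, 0.484 and 0.24 RPKM in HB and 29.2, 16.7 and 20.3 RPKM in HE, a fall of 4.54 (SE 0.33, adjusted p = 4.83e-07, limma). MYBR41 had 1.95, 0.315 and 0.702 RPKM in HB and 22, 22.9 and 22.9 RPKM in HE. The gene listed as RADIALIS, after a small MYB-like protein of snapdragon flowers, had 9.22, 6.76 and 6.13 RPKM in HB and 124, 131 and 120 RPKM in HE, and fell by 4.01. The rest of the family did not share this: of 34 MYB genes tested, 6 fell and 3 rose (1 rose without HB_2), with a median of 0.04 that was -0.06 after median-ratio rescaling. Among all genes 10.7% were lower and 17.2% higher. The MADS-box gene MADS15 had 0.938, 0.796 and 0.945 RPKM in HB and 19.6, 37.7 and 22.8 RPKM in HE, a fall of 4.23 (SE 0.24, adjusted p = 1.85e-08, limma). It was the 1 gene called of 8 MADS-box genes tested; a 2nd was called under quantile normalization.

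The shares of all genes to set beside the other families are 17.2% higher and 10.7% lower. Of 18 WRKY factors, regulators of defence and ageing, 10 rose and none fell, with a median of 0.41. That count was 7 after median-ratio rescaling and 6 without any 1 of HE_1, HE_2, HE_3, HB_2 and HB_3. WRKY104 had 1.86, 12.6 and 9.42 RPKM in HB and 0.578, 0.688 and 0.381 RPKM in HE, a rise of 2.70. The gene WRKY42 had 16.3, 18.4 and 22 RPKM in HB, against 9.55, 10.7 and 10.6 RPKM in HE. HB_1 was the lowest HB library for both. Of 16 NAC factors, 5 rose (3 without HB_3) and 1 fell (none without HE_2 or HB_1). NAC75 had 197, 170 and 207 RPKM in HB and 81.1, 92.7 and 89.9 RPKM in HE, a rise of 1.12. Of 16 AP2/ERF factors 3 rose and none fell, and of 17 bHLH factors 2 rose (1 without HE_2, HB_1 or HB_3, and 1 after median-ratio rescaling or under quantile normalization) and none fell (1 without HE_1). For both families the rises were near or below the share of all genes. The bHLH gene bHLH116 had 7.53, 42.1 and 5.43 RPKM in HB and 0.647, 1.09 and 0.714 RPKM in HE. Its HB mean rests largely on HB_2, although each HB library was above each HE library. Of 28 bZIP factors 8 rose and 3 fell; the rises numbered 4 without HE_1, HE_3 or HB_2 and 5 without HB_3 or after median-ratio rescaling, which gave 5 falls, and 1 fell without HE_2.

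Among all genes 17.2% were higher and 10.7% lower, and signalling lists differed in how they stood to these shares. Of 22 protein phosphatases 2C, a family that includes brakes on abscisic acid signalling, 10 rose and 1 fell (2 fell without HB_2), with a median of 0.64; 6 rose with a filter at 5 RPKM, which tests fewer genes. PP2C4 had 55.8, 56.9 and 86.1 RPKM in HB and 14.1, 16 and 15.3 RPKM in HE, a rise of 2.07 (SE 0.27, adjusted p = 7.68e-05, limma). Of 19 calcium sensors, calcium-dependent and SnRK kinases, 10 rose and none fell, with 1 lower under median-ratio or quantile scaling. The calcium sensor CBL10 had 61.2, 49.3 and 69.8 RPKM in HB and 9.55, 5.4 and 5.06 RPKM in HE, a rise of 3.12. The energy-sensing kinase gene SnrK1 had 27.5, 35.4 and 29.4 RPKM in HB and 16.8, 19.2 and 18.3 RPKM in HE. In the wider list for abscisic acid itself, 4 of 25 genes rose, near the share of all genes, and 2 fell; median-ratio rescaling gave 3 higher and 4 lower, quantile normalization gave 4 lower, and 1 fell without HE_2, HE_3 or HB_3. For jasmonate, a wound and ageing hormone, 7 of 29 genes rose and 1 fell. Without HE_1 the rises numbered 3. The falls were 2 after median-ratio rescaling or without HB_2, 3 under quantile normalization, and none without HE_2, HE_3 or HB_3. The lipoxygenase lox3 had 26.3, 44.2 and 31.3 RPKM in HB and 6.5, 7.36 and 9.8 RPKM in HE, a rise of 2.02.

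Of 36 auxin genes 8 rose and 6 fell, against 17.2% and 10.7% of all genes, the falls numbering 3 without HE_2 and 2 without HB_3. The gene listed as GH3, a family that links auxin or jasmonate to amino acids, had 41.7, 24.8 and 26.2 RPKM in HB and 0.887, 2.51 and 2.4 RPKM in HE, a rise of 3.73 (SE 0.49, adjusted p = 7.8e-05, limma). The gene AUX10 had 77.6, 75.4 and 104 RPKM in HB, against 18.1, 18.5 and 16.3 RPKM in HE. The auxin carrier gene PIN5a was lower, at 1.85, 1.1 and 0.868 RPKM in HB and 8.51, 6.62 and 9.68 RPKM in HE. Of 30 cytokinin genes 6 rose and 6 fell, with the rises near the share of all genes and the falls numbering 3 without HE_2, HE_3 or HB_3. The cytokinin receptor HK1 had 8.01, 13.2 and 14.6 RPKM in HB and 3.33, 2.89 and 2.98 RPKM in HE. The cytokinin oxidase gene cko2, which degrades the hormone, had 20.8, 19.9 and 21.5 RPKM in HB and 7.87, 5.59 and 10.4 RPKM in HE.

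Benzoxazinoids, defence compounds of young maize, had 4 of 9 biosynthesis genes lower and 1 higher (bx9, whose rise of 0.47 was lost without HE_1, HB_2 or HB_3 and after median-ratio rescaling, with an adjusted p of up to 0.099 when 1 library was left out). The P450 gene BX4 had 17.9, 10.6 and 8.14 RPKM in HB and 39.1, 45.1 and 44.6 RPKM in HE. BX5 had 5.5, 4.17 and 2.39 RPKM in HB and 14.6, 15.2 and 18.7 RPKM in HE. Both groups of libraries stood apart for these genes. Of 25 potassium carriers tested 6 rose and 4 fell, against 17.2% higher and 10.7% lower among all genes. Median-ratio rescaling gave 4 higher and 5 lower. Among those that fell, HAK11 did so by 1.37, to 4.92, 7.22 and 5.35 RPKM in HB, against 18.8, 14.4 and 14.3 RPKM in HE. The wax gene CER1 had 1.38, 2.41 and 3.42 RPKM in HB and 8.89, 10.8 and 8.45 RPKM in HE. Cytosolic ribosomal proteins had a median of 0.02, with 8 of 36 higher and 2 lower, against 17.2% and 10.7% of all genes, and a median of -0.10 after median-ratio rescaling; median-ratio rescaling, or leaving out HE_2 or HB_1, gave 5 higher, and 1 was lower without HE_1, HE_3 or HB_2.

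Of 14 clock and light signalling genes tested 3 rose and 3 fell, against 17.2% higher and 10.7% lower among all genes. Their median of 0.04 was -0.08 after median-ratio rescaling. The rises numbered 1 without HE_1, HE_2, HE_3 or HB_1 and after median-ratio rescaling. ZCN8, a maize gene for the flowering signal that moves from leaf to shoot tip, had 4.92, 2.18 and 4.72 RPKM in HB and 41.1, 37.6 and 42.1 RPKM in HE. It fell by 3.27 (SE 0.29, adjusted p = 2.87e-06, limma). Its relative ZCN7 had 10.9, 4.38 and 5.96 RPKM in HB and 42.9, 41.5 and 54.1 RPKM in HE. The red and far-red light receptor PHYB had 55.6, 66.4 and 47.5 RPKM in HB and 54.7, 56.9 and 49.3 RPKM in HE, and PhyB2 had 15.7, 17.2 and 12.1 RPKM in HB and 14.4, 18 and 14.1 RPKM in HE. These overlap, and neither was called (log2 fold changes of 0.06, SE 0.22, and -0.05, SE 0.16). The homeobox gene gt1, known from shade responses of maize side shoots, was low, with 1.6, 1.07 and 2.85 RPKM in HB and 0.167, 0.192 and 0.172 RPKM in HE, a rise of 1.72. The most abundant gene model was GRMZM2G022958 in both groups, with 5390, 4370 and 4950 RPKM in HB and 4620, 4870 and 6360 RPKM in HE.

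Whether the same leaf positions differed as much at low density was asked with LB and LE, which share no library with HB and HE. LB and LE differed in 61 genes (0.288% of those tested), 46 (0.217%) higher and 15 (0.0708%) lower in LB, with 2552 at an unadjusted p under 0.05. The count was 30 without LE_1, 23 without LE_3, 34 without LB_3, 38 without the LA libraries, and 89 without LE_2, the highest. Of the 61, 43 were called in the same direction in HB against HE, or 70.5% of the low-density calls and 0.728% of the high-density calls, and none in the opposite direction. Across genes the 2 sets of log2 fold changes had a Pearson r of 0.463 and a Spearman rho of 0.443, over 21184 genes that are not independent. The genes higher in HB had a median of 0.67 at high density and 0.15 at low density, and 78.7% had the same sign. The genes lower in HB had a median of -0.81 at high density and -0.20 at low density, and 79.5% had the same sign. Both sets were picked by their call in HB against HE, which inflates their high-density medians. Smaller medians at low density would thus appear even with equal differences, so these medians cannot tell if the positions differed as much. The 62 photosynthesis genes had a median of -0.82 at high density and 0.01 at low density. Their share of RPKM at low density was 4.23%, 3.13% and 5.25% in LB and 4.56%, 4.26% and 4.47% in LE. LB libraries thus spread widely, with LB_2 lowest. Correlations were 0.954 to 0.983 among LB libraries, 0.979 to 0.984 among LE libraries and 0.953 to 0.978 between them.

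**Figure D3:**
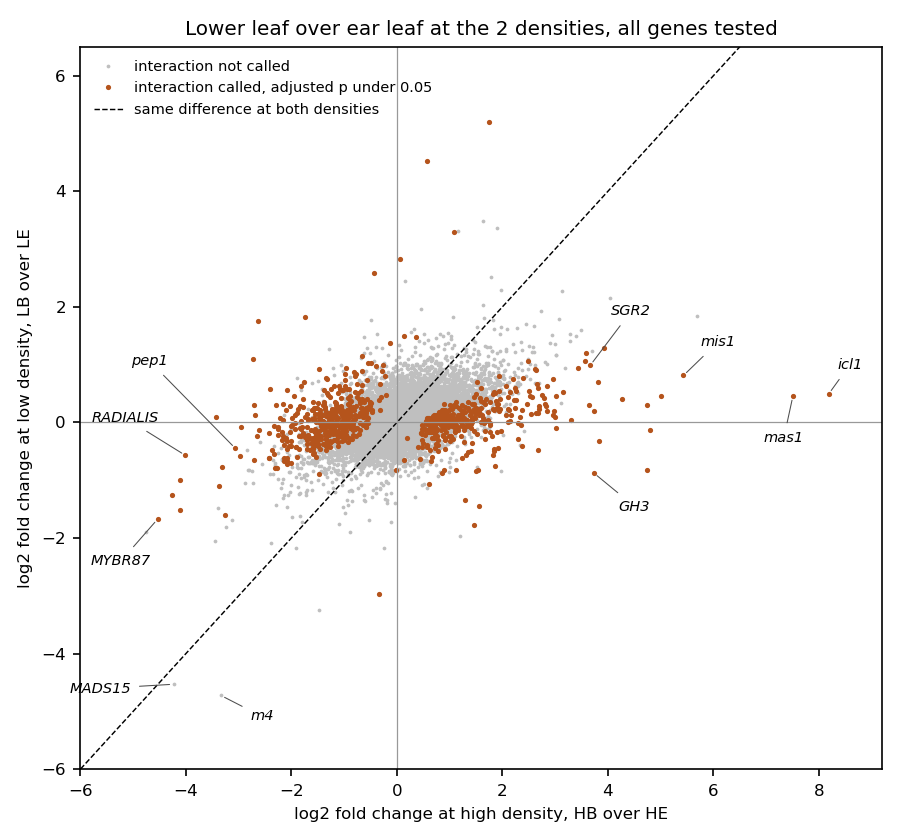
Log2 fold change of the lower leaf over the ear leaf at high density (x axis, HB over HE) and at low density (y axis, LB over LE) for the 21184 genes tested; coloured points had a called difference between the densities. The genes icl1, mas1, SGR2 and pep1 lie far from 0 on the x axis and within 1 log2 of 0 on the y axis, while MADS15 and m4 lie at or below -3 on both.

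The difference between the 2 position contrasts was called in 815 genes (3.85%), 372 (1.76%) higher and 443 (2.09%) lower. Of these, 788 were also called in HB against HE, which uses the same HB and HE libraries, so this overlap is partly built in. The count of 815 depended on single libraries: it was 2933 without LB_2, 801 without HB_1 and between 221 (without LB_3) and 518 (without LE_1) without any 1 of the others. Among the 62 photosynthesis genes it was called in 22, lower in each, with 36 without LB_2, 27 without HB_1, 3 without LB_3 and 5 to 11 without any 1 of the others. The following genes were called with any 1 of the 12 libraries left out. For icl1 the values at low density were 0.16, 0.458 and 0.054 RPKM in LB and 0 in each LE library, and the difference between contrasts was 7.70 (adjusted p = 1.14e-06, limma). For mas1 the difference was 7.05 (adjusted p = 7.1e-08, limma). SGR2 had 6.44, 7.63 and 4.2 RPKM in LB and 4.19, 3.1 and 1.5 RPKM in LE, and its difference between contrasts was 2.68. For pep1 the levels were 3880, 2060 and 5260 RPKM in LB and 5360, 4180 and 4790 RPKM in LE, with a difference of -2.61 (adjusted p = 0.00728, limma). The sucrose phosphate synthase gene sps1 had 238, 223 and 269 RPKM in LB and 355, 305 and 306 RPKM in LE, with a difference of -1.65 (adjusted p = 0.000689, limma). RADIALIS had 39.6, 21.2 and 44.9 RPKM in LB and 62.4, 39.3 and 51 RPKM in LE, with a difference of -3.44. For gsh1, with 19.5, 24.8 and 15 RPKM in LB and 22.3, 24.8 and 23.8 RPKM in LE, the difference was 2.57. None of these 7 genes was called between LB and LE.

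A few genes followed leaf position at both densities. MADS15 had 0.668, 0.677 and 0.606 RPKM in LB and 15.9, 30.9 and 35.9 RPKM in LE, a fall of 4.53 (adjusted p = 2.51e-08, limma), and its difference between contrasts was 0.30 (SE 0.34, adjusted p = 0.656, limma). The gene listed as m4 had 14.1, 4.75 and 6.74 RPKM in HB and 71.6, 93.5 and 84.1 RPKM in HE, and 3.01, 1.81 and 1.44 RPKM in LB and 51, 87 and 63.9 RPKM in LE. It fell by 3.34 at high and by 4.72 at low density. GT1 (GRMZM2G421491), a gene apart from the homeobox gene gt1, rose by 0.76 at high and 0.87 at low density. It had 26.1, 22.1 and 23.1 RPKM in HB and 12.3, 13.8 and 15.4 RPKM in HE, and 21.3, 26.1 and 20.7 RPKM in LB and 13.4, 12.3 and 10.9 RPKM in LE. ZCN8 fell at both, by 1.6 at low density, and MYBR87 by 1.67 (adjusted p = 0.0286 and 0.0423, limma). These 2 genes fell further at high density. Their differences between contrasts were -1.67 for ZCN8 and -2.86 for MYBR87 (adjusted p = 0.0342 and 0.00532, limma). The call of that difference for ZCN8 was lost without at least 1 library.

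The leaf above the ear gives a further point of reference at high density. HA and HE differed in 516 genes (2.44%), 252 (1.19%) higher and 264 (1.25%) lower in HA. Same-numbered HA and HE libraries deviated together, so the replicate number was also entered as a block, which gave 871 genes over all libraries and 987 over HA and HE alone. Leaving out 1 library gave 158 (without HA_3), 193 (without HA_1), 229 (without HE_2), 236 (without HE_3), 453 (without HE_1) and 818 (without HA_2). HB differed from HA in 9308 genes (43.9%), 6014 (28.4%) higher and 3294 (15.5%) lower in HB. These comparisons share HE or HB libraries with HB against HE, so the levels are given side by side. For pep1 they were 618, 461 and 374 RPKM in HB, 4700, 4750 and 5510 RPKM in HA, and 4300, 3780 and 3820 RPKM in HE. SGR2 had 36.7, 39.7 and 62.7 RPKM in HB, 3.8, 3.16 and 2.6 RPKM in HA, and 2.51, 3.45 and 3.37 RPKM in HE. In both genes HA lay at or near the HE level and HB apart. For MADS15 the levels were 0.938, 0.796 and 0.945 RPKM in HB, 55.2, 51.7 and 53.6 RPKM in HA, and 19.6, 37.7 and 22.8 RPKM in HE, an order from the lower to the upper leaf. Zma1158, a gene whose name says nothing of its role, had the reverse order, with 256, 253 and 433 RPKM in HB, 1.27, 2.77 and 0.999 RPKM in HA, and 19.4, 17.9 and 16.5 RPKM in HE. GH3 followed neither order. It was high in both outer leaves, with 41.7, 24.8 and 26.2 RPKM in HB, 23, 20.1 and 19.5 RPKM in HA, and 0.887, 2.51 and 2.4 RPKM in HE. The photosynthesis share was 1.97 ± 0.25% in HB, 4.61 ± 0.233% in HA and 4.35 ± 0.253% in HE (SD, n = 3 each).

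**Figure D4:**
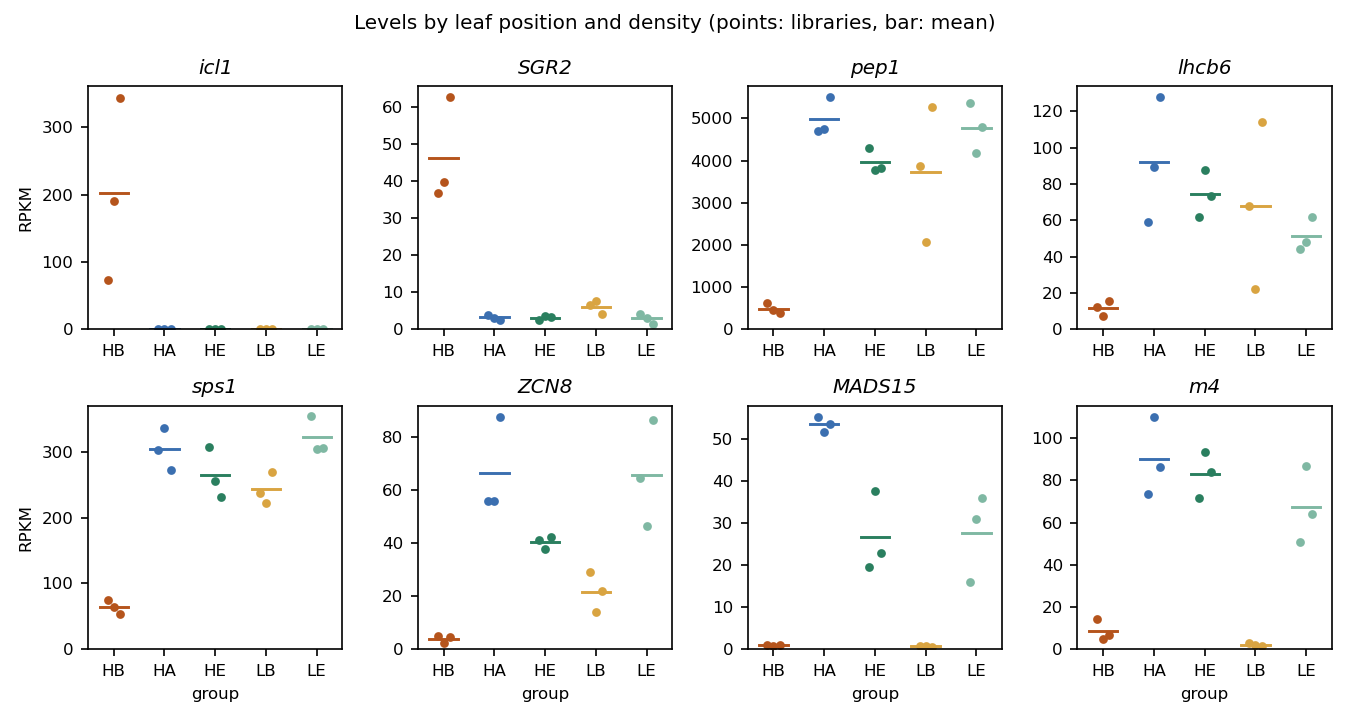
RPKM (y axis, from 0) of 8 genes in the groups HB, HA, HE, LB and LE (x axis); points are libraries and bars are means. In icl1, SGR2, pep1, lhcb6 and sps1 the HB libraries stand apart from the other 4 groups, while MADS15 and m4 are low in both lower leaves, HB and LB.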

How the data were processed

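The deposited values are RPKM per gene model, made by the authors from leaf RNA-seq reads. The submitters' processing notes name Trimmomatic 0.35, HISAT 0.1.6, HTSeq 0.6.1 and the build B73 RefGen_v3. Whether counting used strand is not given in the sources used here, so genes that overlap, and near-identical copies, may share reads. In 2655 low genes, 99.4% of 4912 values lay within 0.1 of a whole number of reads, against 20% for evenly spread values, and 1 read was worth about 0.0446 RPKM at the length of those genes. Depth was recovered only as relative depth, which differed by up to 1.27 times between libraries, so no counting interval is given for a value.

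Genes that reached 1 RPKM in 3 or more of 18 libraries were tested on log2(RPKM + 0.5) with limma 3.58.1 in R 4.3.3, with 1 mean per group, a trended prior and Benjamini-Hochberg adjustment over 21184 genes. With 3 libraries a group, exact permutation allows no p under 0.1, so it was not used. The LA libraries carry a treatment label of high density against their titles; they enter only the common spread. Same-numbered HA and HE libraries deviated together (correlations 0.173, 0.189 and 0.137), so their numbers were taken to pair them; those of HB and HE (-0.0106, 0.0807 and 0.0268) were not.

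Names come from RefSeq's gene table for Zm-B73-REFERENCE-NAM-5.0, an assembly other than the authors'. It matched 17838 of 31855 gene models and named 2492; no coordinates or sequences were taken from it. The genes named were the 15 largest rises and falls that did not overlap, the 3 with the smallest p and 1 in the other direction of each list, the 5 most abundant of each group, the 10 largest differences between densities in each direction, and a few fixed genes. The rule's part for genes with a description but no symbol named none. The comparison, lists and genes were chosen with earlier results of these data known, and the wider lists after the names in the table had been read, so no list gets a test. Alternatives were other pseudocounts, filters, scalings, sets of libraries, a prior without trend, a replicate block, and leaving out each library.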

Additional observations from a re-analysis of the deposited data

Results flagged for a closer look

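The difference between the position contrasts at high and at low density, HB over HE minus LB over LE on the log2 scale, was called by limma (adjusted p under 0.05) in 64 of the named genes, 39 of them lower and 25 higher. Over all genes tested it was called in 3.85%. The named genes were chosen mostly by HB against HE and partly by this difference itself, so a high count among them is built in. Of the 64, 27 were also called with any 1 of the 12 libraries left out. The count still called was 64 without LB_2, 56 without HB_1, and between 27 (without LB_3) and 42 (without LE_1) without any 1 of the others.

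Among the 27, the lower differences were those of RADIALIS (-3.44), MYBR87 (-2.86), pep1 (-2.61), MYBR41 (-2.60), BX4 (-2.12), ZCN7 (-2.05), BX5 (-1.93), pDCT2 (-1.85), bZIP84 (-1.84), HAK11 (-1.72), sps1 (-1.65), cat2 (-1.58), pip2b (-1.58), NNR1 (-1.32) and PSA2 (-1.06). The higher ones were those of a2 (0.92), lls1 (1.1), AUX10 (1.63), mlo1 (1.73), HK1 (1.80), Agp2 (2.40), gsh1 (2.57), SGR2 (2.68), GH3 (4.61), mis1 (4.62), mas1 (7.05) and icl1 (7.70).

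The other 37 lost the call without at least 1 library, with an adjusted p of up to 0.145. Lower differences among them were those of lhcb6 (-2.82), lhcb7 (-2.39), cp29 (-2.20), rbcS (-1.82), psbs1 (-1.80), PIN5a (-1.78), gpa1 (-1.73), CER1 (-1.70), ZCN8 (-1.67), rbcs1 (-1.62), NIR (-1.48), DVR (-1.40), lhcb4 (-1.32), bx6 (-1.30), rca1 (-1.24), oy1 (-1.17), eno1 (-1.12), PSA3 (-1.03), pDCT1 (-0.90), PGR5 (-0.89), lyce1 (-0.75), hcf106 (-0.74), WHY1 (-0.69) and RH3A (-0.57). Higher ones were those of bZIP52 (0.52), NHX3 (0.56), PP2C (0.58), Atg4b (0.65), pdi11 (0.73), ATG3 (0.85), RPL19 (0.91), cko2 (1.42), PP2C4 (1.43), gt1 (1.53), GLK44 (2.04), WRKY104 (2.46) and CKX5 (3.24). CKX5 was not itself called in HB against HE (log2 fold change 1.46) and had -1.78 in LB against LE.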

How the results depend on the processing

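None of the named genes called between HB and HE changed direction under the alternatives run, but the side with more calls over all genes, and the sign of list medians near 0, turned with the scaling. Of these 177 genes, 152 kept the call without each HB or HE library and 150 under all alternatives. The count of 5904 genes lay between 4322 and 5047 when 1 library was left out and between 5243 and 6766 otherwise; with a replicate block, for which the numbers of HB and HE gave no pairing, it was 6467 over all libraries and 6343 over HB and HE alone. For LB against LE (61) leaving out 1 library gave 23 to 89, fitting only the groups compared gave 19, leaving out LA 38, and the replicate block 195 over all libraries and 26 over LB and LE alone. For the difference between densities (815) these were 221 to 2933 when 1 library was left out and 1566 with the block over all libraries. For HA against HE (516), leaving out 1 library gave 158 to 818, and the block 871 and 987. HB against HA (9308) gave 7459 to 8759. Causes of these moves were not tested. Rescaling libraries to the same sum gave 3562 higher and 2192 lower. Values at or under a few reads are poorly resolved, and fold changes of genes near 0 depend on the pseudocount.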
